A study of Rattus norvegicus with 20 samples.

Results

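The herbal preparation STW5 at 2 ml/kg was compared with no drug in rats with surgically induced reflux oesophagitis. The comparison takes the 4 scanner files titled as STW5 2 ml/kg and the 4 titled as untreated, 8 of the 20 arrays of the series. Each array measured total RNA of oesophageal tissue of Wistar rats, with 1 array per animal and 4 animals per group according to the series' design. High-dose animals received STW5 for 7 days before the operation and for 10 days after it, while untreated animals had the same operation and no drug. The other groups were sham-operated rats, operated rats given STW5 at 0.5 ml/kg and operated rats given omeprazole at 30 mg/kg on the same schedule, with 4 arrays each, and all oesophagi were taken 10 days after the operation. The labels name no vehicle for the untreated animals and give neither sex, age nor the part or layer of the oesophagus.

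STW5 is a fixed combination of plant extracts used for functional dyspepsia, and omeprazole blocks the gastric proton pump and so lowers acid output. In reflux oesophagitis, acid and bile injure the squamous lining, and the injured epithelium and resident cells release chemokines that draw neutrophils and monocytes into the wall. Toll-like receptors and inflammatory cytokines switch on NF-kB, a transcription factor held back in the cytoplasm by inhibitory IkB proteins, whose own genes it drives as a brake. The aryl hydrocarbon receptor (AhR) is a sensor of many plant and drug compounds that turns on Cyp1 enzymes and its own repressor Ahrr.

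A level is the log2 signal of a gene's brightest probe minus the 75th percentile of the array, so negative levels are normal for weaker probes and levels of different genes are not comparable. The 75th percentile signal was 779 to 1078 units on high-dose arrays and 612 to 856 on untreated arrays, with 66.2% to 70.5% and 64.9% to 69.0% of features well above background. The squamous keratins Krt4, Krt13, Krt5 and Krt14 and the muscle genes Ckm, Acta1, Myh11 and Acta2 were well above background on all 8 arrays. Of the stomach genes, Cblif and Pga5 were so on 0 of 8 and Gkn1 on all 8. Atp4a was so on 2 high-dose arrays and 1 untreated array, and Atp4b on 1 and 0. The intestinal genes Cdx1 and Alpi and the liver gene Ahsg were also above it on all 8, and the liver gene Apoa1 and the airway gene Foxj1 on 0. The liver gene Alb was so on 4 high-dose arrays and 1 untreated array. Several features of the arrays limit the comparisons. High-dose and omeprazole arrays shared slide 3 and untreated and low-dose arrays slide 2, so slide and group cannot be told apart between high dose and untreated. To keep genes that move with the slide out of the counts, 173 of 13615 genes were set aside because all 8 arrays of slide 3 lay above (160) or below (13) the other 12. The doses carry a second doubt: the deposited value table has the STW5 columns of both doses exchanged relative to the scanner files, and the group numbers in the titles and in the series' design disagree about the doses. Dose names below are those of the scanner files. If the value table's columns were right, the arrays called high-dose here would be those of 0.5 ml/kg. Low-dose replicates 1 and 2 were near-identical and were counted as 1 sample. Sham replicate 2 went against its label, as its closest array was omeprazole replicate 2, and it enters the results through the shared spread and the choice of the set of slide 3. Leaving it out of the fit, with the set of slide 3 kept as chosen, gave 1151 called genes against untreated, 27 against omeprazole and 3102 against low dose. Its part in the choice of the set was not tested.

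With high-dose STW5, 541 of 13442 genes outside the set of slide 3 were higher than in untreated oesophagitis (4.02%) and 583 were lower (4.34%), at an adjusted p under 0.05 in limma. The 15 largest falls included the myeloid genes Gpr84, Camp and Slc11a1 and the chemokines Ccl4 and Ccl2, and the 15 largest rises included the xenobiotic-metabolising enzyme Cyp1a1, the muscle myosin Myh13 and the mesenchymal transcription factor Tcf21. The change was at least 2-fold for 247 of the higher and 311 of the lower genes. The 4 arrays of each group did not overlap for 479 of the higher and 457 of the lower genes, while over all 13442 genes 8.61% were higher and 7.96% lower without overlap. The median SD of a gene was 0.233 on high-dose and 0.369 on untreated arrays. With animals as the only stated replicates, the p-values rest on the spread between arrays within groups. That spread was pooled over the 5 groups of the series, not taken from these 8 arrays alone.

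The number of genes changed depended on single arrays, whereas the median change over all genes was -0.011. It was 262 without high-dose replicate 1, 532 without high-dose replicate 2, 742 without high-dose replicate 3 and 728 without high-dose replicate 4. It was 665 without untreated replicate 1, 1874 without untreated replicate 2 and 539 without untreated replicate 3. A fit of the 2 groups alone called 337 genes. The deposited value table with its own dose names called 5274, but its high-dose columns hold the signals of the arrays named low-dose here. This count, and the results of that table for single genes below, therefore do not test the high-dose arrays. The share of called genes that were higher was 48.1%, and it was 37.7% after quantile normalization, 38.0% after scaling to the array median, 33.7% after normexp background correction, 59.6% in the fit of 2 groups and 64.2% in the value table.

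**Figure D1:**
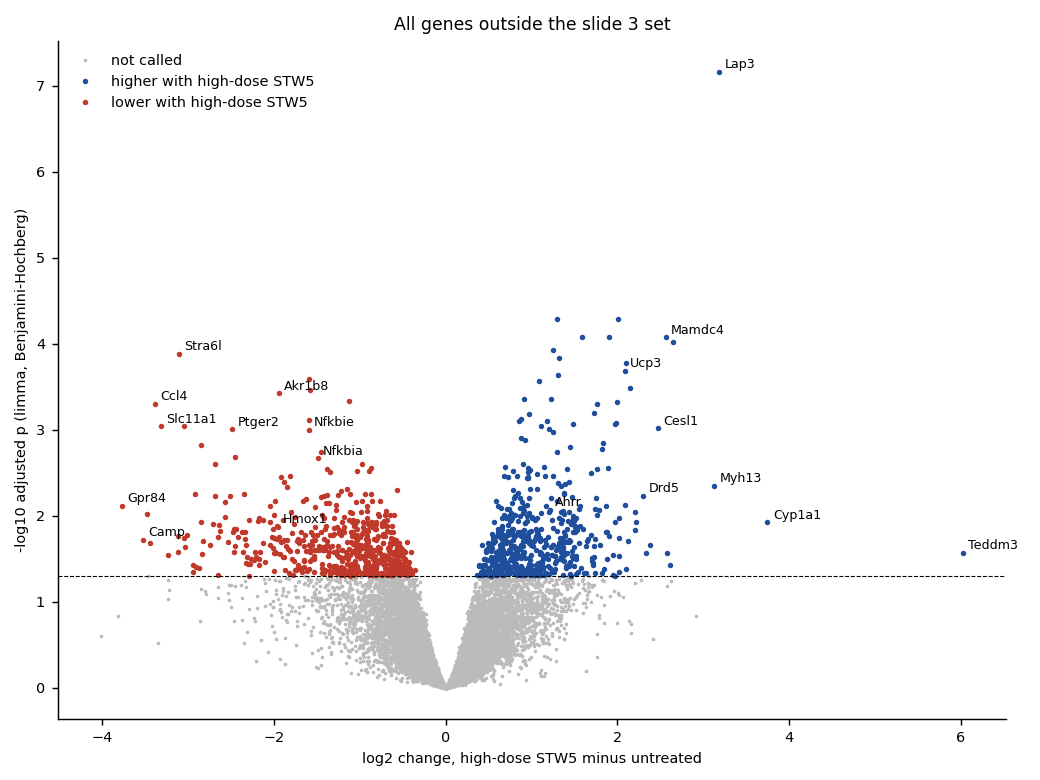
Each point is 1 of 13442 genes, with the log2 change of high-dose STW5 minus untreated on the x axis and -log10 of the adjusted p on the y axis, where the dashed line marks an adjusted p of 0.05. Blue points are the 541 higher and red points the 583 lower genes, with Gpr84, Camp and Ccl4 among the labelled falls and Cyp1a1 and Ucp3 among the labelled rises.

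Genes of activated neutrophils and macrophages were among the largest falls. Gpr84, a receptor for medium-chain fatty acids on activated myeloid cells, stood at 0.61, -1.94, -0.13 and -1.29 on untreated replicates 1 to 4 and at -6.17, -4.58, -3.88 and -3.20 on high-dose replicates 1 to 4. Every high-dose array lay below every untreated array, a change of -3.77 ± 0.78 on the log2 scale (SE, adjusted p = 0.00765). Slc11a1, the phagosome metal transporter of macrophages, read 0.96, -1.75, -0.07 and -0.62 on untreated and -4.88, -3.29, -2.93 and -3.67 on high-dose arrays. Its groups were also separate (-3.32 ± 0.53, adjusted p = 0.000912). Camp, the neutrophil granule cathelicidin, had levels of -0.71, -2.95, 0.79 and -0.41 without drug and -5.35, -4.33, -4.53 and -3.18 with high-dose STW5. Untreated replicate 3 was highest and high-dose replicate 1 lowest (-3.53 ± 0.86, adjusted p = 0.0189). Omeprazole arrays ranged over -7.26 to -4.42 for Gpr84, -5.15 to -3.99 for Slc11a1 and -6.39 to -3.84 for Camp, and sham arrays over -7.35 to -4.64, -5.32 to -3.72 and -7.81 to -4.09.

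Further myeloid genes fell with separate groups. Acod1, which makes itaconate in activated macrophages, changed by -3.12 ± 0.75, Hk3, the leukocyte hexokinase, by -3.23 ± 0.87, Nlrp12, a regulator of inflammatory signalling in myeloid cells, by -2.94 ± 0.84 and Trem3, a myeloid cell surface receptor, by -2.91 ± 0.84 (adjusted p = 0.0172, 0.0283, 0.0376 and 0.0395). Dusp2, an inducible phosphatase of MAP kinases in immune cells, stood at -2.76, -4.48, -2.51 and -2.77 on untreated and -6.85, -6.02, -5.57 and -6.26 on high-dose arrays. All 4 high-dose arrays were lower (-3.05 ± 0.49, adjusted p = 0.000907). Defa10, an alpha-defensin, was not well above background on any high-dose array and was at least 2.18-fold lower (adjusted p = 0.00556).

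The remaining named falls lay outside that group. Mmp7, the epithelial matrix protease matrilysin, was not well above background on any high-dose array and was at least 6.62-fold lower than without drug (adjusted p = 0.00958). Its levels were -0.87, -3.40, -4.08 and -4.44 on untreated and -5.84, -6.90, -6.86 and -7.09 on high-dose arrays, again without overlap. Vegfb, a growth factor of the VEGF family, was at least 2.86-fold lower (adjusted p = 0.0206) and Stra6l, a retinol-binding protein receptor, at least 2.83-fold lower (adjusted p = 0.000131), both dim on all high-dose arrays. Gsg1, a germ cell-associated gene, changed by -3.05 ± 0.74, adjusted p = 0.0179.

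Among these falls, Gpr84, Slc11a1, Dusp2, Defa10, Mmp7 and Stra6l passed the threshold when any 1 of the 8 arrays was left out. Camp had an adjusted p of 0.0644 to 0.0741 without untreated replicate 3 or high-dose replicate 1. Acod1 had an adjusted p of 0.0536 to 0.0636 without untreated replicate 1 or high-dose replicate 1 and 0.0841 in the fit of 2 groups. Hk3 had an adjusted p of 0.0538 to 0.101 without untreated replicates 1 or 3 or high-dose replicates 1, 2 or 3. Nlrp12 had an adjusted p of 0.0538 to 0.138 without untreated replicates 1, 3 or 4 or high-dose replicates 1, 2 or 3 and 0.0667 in the fit of 2 groups. Trem3 had an adjusted p of 0.0554 to 0.141 without untreated replicates 1, 3 or 4 or high-dose replicates 1, 2 or 3 and 0.0508 with no filter on dim probes. Gsg1 had an adjusted p of 0.0714 without high-dose replicate 1. Vegfb had an adjusted p of 0.0589 without high-dose replicate 1, 0.0765 with signals near background raised to it, 0.104 in the fit of 2 groups and 0.0698 in the value table. Defa10 had an adjusted p of 0.058 with signals near background raised to it and 0.0629 in the fit of 2 groups.

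**Figure D2:**
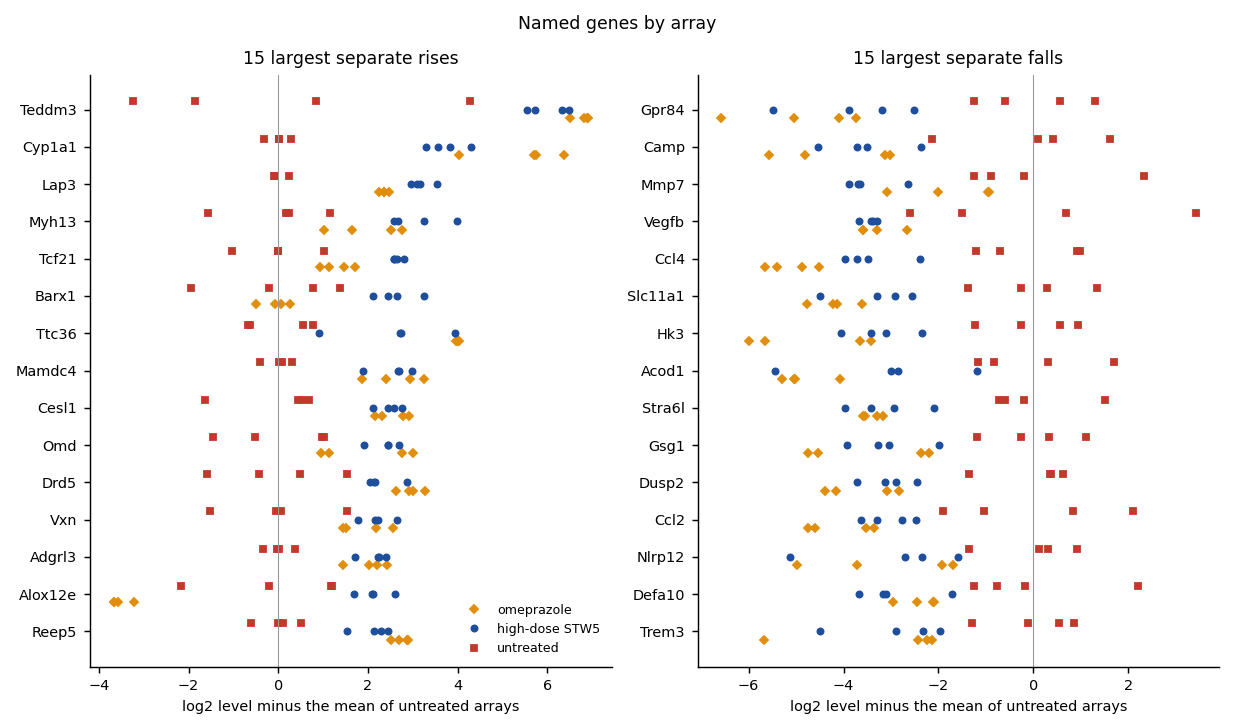
Each row is a gene and each symbol an array, with the log2 level minus the mean of the 4 untreated arrays on the x axis, for untreated, high-dose STW5 and omeprazole arrays. In both panels the high-dose circles lie on 1 side of all untreated squares, as the choice of genes requires, and untreated arrays spread widely for Teddm3.

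Leukocyte marker lists described the same tissue by cell type. Of 29 macrophage and monocyte markers, 7 fell (24.1% against 4.34% of all genes) and 0 rose, with a median change over the list of -1.39 beside -0.011 over all genes. The integrin Itgam (-1.85 ± 0.36, adjusted p = 0.00468), the endotoxin co-receptor Cd14 (-2.57 ± 0.52, adjusted p = 0.00687) and the myeloid transcription factor Spi1 (-2.01 ± 0.43, adjusted p = 0.00988) fell, as did the adaptor Tyrobp (-1.86 ± 0.47), the scavenger receptor Msr1 (-2.45 ± 0.62), the oxidase subunit Cybb (-1.75 ± 0.51) and the lysosomal glycoprotein Gpnmb (-1.82 ± 0.55). Itgam, Cd14 and Spi1 passed when any 1 array was left out, and the list's count was 3 without untreated replicate 1 or high-dose replicate 1, 4 without untreated replicate 3 or high-dose replicate 2 and 14 without untreated replicate 2. A list score, the mean over the list of each gene's level minus its mean over the 20 arrays, was 1.41 to 2.82 on untreated, 0.25 to 1.21 on high-dose, -0.82 to -0.04 on omeprazole and -2.08 to 0.02 on sham arrays. The high-dose range lay below the untreated range and above the omeprazole range. All 29 markers were well above background on all 4 high-dose arrays. In bulk tissue, fewer cells of a type and less RNA per cell cannot be told apart.

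Neutrophil markers had the lowest list median, -1.94, with wide spread. Camp and the neutrophil collagenase Mmp8 (-3.12 ± 0.82, adjusted p = 0.0267) fell, 2 of 16 (12.5%). The count was 0 without untreated replicate 3 or high-dose replicate 1, 1 without untreated replicate 4 or high-dose replicates 2 or 3 and 6 without untreated replicate 2. The score was 1.29 to 4.12 on untreated and 0.16 to 1.84 on high-dose arrays, which overlap, against -1.89 to 0.64 on omeprazole arrays. Retnlg, a resistin-like protein of the rat and mouse bone marrow and myeloid lineage, read 2.44, 2.45, 3.03 and 1.99 on untreated and 4.41, 3.06, 3.42 and 3.85 on high-dose arrays. All 4 high-dose arrays were higher, yet the change did not pass the test (1.21 ± 1.02, adjusted p = 0.461).

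Mast cell and eosinophil markers gave no call: 0 of 15 passed in limma, 2 had an unadjusted p under 0.05 (both with a positive change), and the list median was -0.19. Their score was 0.41 to 1.03 on untreated, 0.46 to 0.73 on high-dose and -0.42 to 0.05 on omeprazole arrays. Ccr3, the eotaxin receptor of eosinophils, was at -4.51, -4.57, -5.25 and -6.62 on untreated and -2.98, -4.63, -4.04 and -3.38 on high-dose arrays. High-dose replicate 2 lay within the untreated range, and the change did not pass the test (1.48 ± 0.48, adjusted p = 0.0606). T and NK cell markers had 0 of 18 called in limma and 4 lower at an unadjusted p under 0.05, and complement and acute phase genes 0 of 23 called, with 1 higher and 2 lower. The complement score was 1.10 to 2.22 without drug and 0.71 to 1.46 with high-dose STW5. Without untreated replicate 2, which raised the count of most lists, 1 mast cell and eosinophil marker and 2 complement genes passed. T and NK cell markers had 2 calls without untreated replicate 3, 2 lower genes called after quantile normalization or array median scaling and 3 lower after normexp. Among B and plasma cell markers the coactivator Pou2af1 fell (-2.54 ± 0.63, adjusted p = 0.0202), a call lost without high-dose replicate 1 or 2. The part of leukocyte content in the changes of other lists was not tested.

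**Figure D3:**
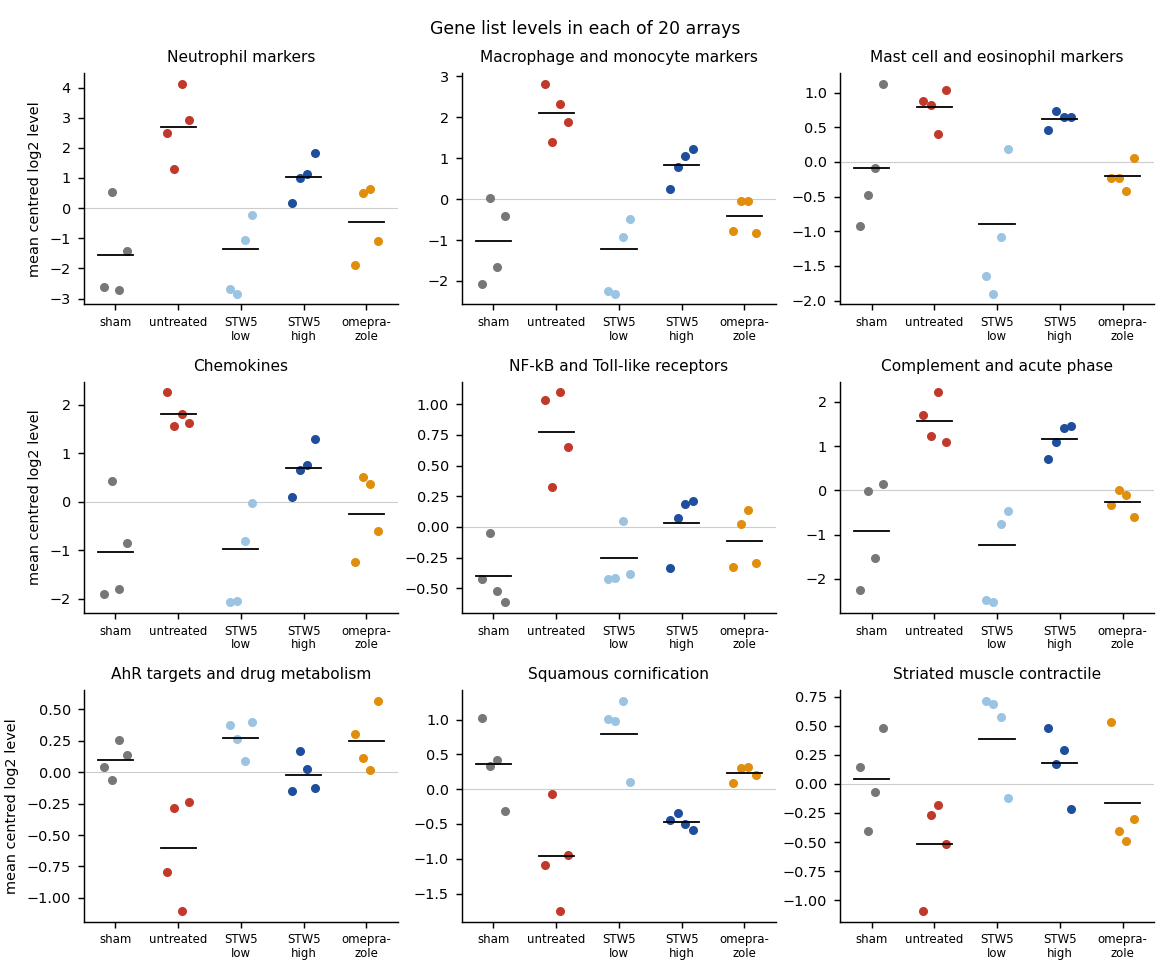
Each dot is an array and each line a group mean, with the mean centred log2 level of a gene list on the y axis for 9 lists and the 5 groups on the x axis, the near-identical low-dose pair counted once in its mean. High-dose arrays lie below untreated arrays for macrophage and monocyte markers, while both groups overlap for mast cell and eosinophil markers and for complement and acute phase genes.

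Ligands that recruit and activate leukocytes came next. The chemokine list had 2 falls among 30 genes (6.67%), both monocyte attractants, and a median change of -0.86. Ccl4 stood at -1.05, -3.24, -2.75 and -1.12 on untreated and -5.76, -5.53, -6.01 and -4.43 on high-dose arrays. The groups were separate and the change was -3.39 ± 0.51 (adjusted p = 0.000497). Ccl2 read 2.10, 1.26, 5.25 and 3.99 on untreated and -0.48, -0.14, 0.39 and 0.67 on high-dose arrays. Untreated replicates 3 and 4 were far above replicates 1 and 2, and all 4 high-dose arrays were lower (-3.04 ± 0.78, adjusted p = 0.0233). Ccl4 passed when any 1 array was left out. Ccl2 had an adjusted p of 0.057 to 0.0829 without untreated replicates 3 or 4 or high-dose replicates 1 or 2 and 0.0667 in the fit of 2 groups. The eosinophil attractant Ccl11 was at 1.81, 2.64, 4.83 and 1.61 on untreated and 2.26, 2.21, 2.53 and 2.95 on high-dose arrays and did not pass (-0.24 ± 0.75, adjusted p = 0.863). The list score was 1.56 to 2.25 on untreated and 0.10 to 1.30 on high-dose arrays. The chemokine count was 1 without high-dose replicates 1 or 2 and 5 without untreated replicate 2, and 7 lower and 1 higher passed after normexp.

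Cytokine genes had 7 falls among 30 (23.3%) and 0 rises, with a median of -0.70. The inflammatory cytokines Tnf (-2.83 ± 0.70, adjusted p = 0.0198) and Osm (-1.98 ± 0.52) and the granulocyte growth factor Csf3 (-2.71 ± 0.61, adjusted p = 0.0125) fell, and so did genes that restrain inflammation: Il10 (-2.85 ± 0.63, adjusted p = 0.0119), the interleukin 1 receptor antagonist Il1rn (-1.41 ± 0.28, adjusted p = 0.00584) and Tgfb1 (-1.48 ± 0.38). The interleukin 1 receptor Il1r1 changed by -1.04 ± 0.31. Tnf stood at 0.12, -1.29, 1.56 and -0.14 on untreated and -3.87, -2.71, -2.71 and -1.78 on high-dose arrays. Untreated replicate 3 was the highest of the 8. The count was 1 without high-dose replicate 1, 3 without untreated replicate 3, 4 without untreated replicate 1 and 11 without untreated replicate 2, and 1 in the fit of 2 groups, and Il1rn passed when any 1 array was left out.

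NF-kB and Toll-like receptor genes that passed were lower, except for Ripk2. Of 26 measured members outside the set of slide 3, 10 fell (38.5%) and 1 rose, with a list median of -0.80. The promoters of the IkB genes Nfkbia and Nfkbie are shown because both genes fell and both hold an NF-kB motif. They cover the 250 bases before the RefSeq transcript start in build GRCr8, read 5′ to 3′ on the gene's strand, with the motif in capitals: Nfkbia at chr6:78597073-78597322 (minus strand) and Nfkbie at chr9:22947873-22948122 (minus strand).

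Nfkbia: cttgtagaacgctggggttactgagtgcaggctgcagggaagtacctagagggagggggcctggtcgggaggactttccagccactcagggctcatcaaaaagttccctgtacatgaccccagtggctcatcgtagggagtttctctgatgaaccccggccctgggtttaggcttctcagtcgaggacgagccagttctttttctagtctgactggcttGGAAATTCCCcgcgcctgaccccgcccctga
Nfkbie: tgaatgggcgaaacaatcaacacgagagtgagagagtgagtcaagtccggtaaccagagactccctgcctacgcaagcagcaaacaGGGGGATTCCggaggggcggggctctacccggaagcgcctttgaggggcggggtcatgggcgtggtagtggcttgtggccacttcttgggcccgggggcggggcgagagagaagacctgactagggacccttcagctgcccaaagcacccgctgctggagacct

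Counted from the start, with -1 the last base before it, the Nfkbia motif lay at -31 to -22, matched on the strand opposite to the printed one, and the Nfkbie motif at -164 to -155 on the printed strand. An NF-kB motif on either strand was present in 1761 of 27457 RefSeq promoters of that length (6.41%), and a match is a description of letters, not of binding. Nfkbia, which encodes the main inhibitor IkB-alpha, stood at 3.57, 2.92, 4.53 and 4.09 on untreated and 2.07, 2.33, 2.16 and 2.58 on high-dose arrays. All high-dose arrays were lower, by -1.49 ± 0.26, adjusted p = 0.00215. Nfkbie, which encodes IkB-epsilon, stood at -0.26, -1.45, -0.58 and -1.03 and -3.05, -2.39, -2.18 and -2.08. Its groups were separate too (-1.60 ± 0.26, adjusted p = 0.001). Omeprazole arrays ranged over 2.00 to 2.20 for Nfkbia and -3.17 to -2.46 for Nfkbie, and sham arrays over 1.88 to 2.18 and -3.14 to -2.66. Both genes passed when any 1 array was left out, in the fit of 2 groups, with the replicate block, after normexp and under each other alternative computed for single genes. They also passed in the value table, but its high-dose columns hold the signals of the arrays named low-dose here. That result therefore does not test the high-dose arrays.

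Other inhibitors and feedback genes fell with them: Nfkbib, which encodes IkB-beta (-0.58 ± 0.15), Bcl3, an atypical IkB protein (-0.80 ± 0.19), and Irak3, which restrains Toll-like receptor signalling (-0.81 ± 0.19). Among the sensors, the lipoprotein receptor Tlr2 (-2.48 ± 0.58, adjusted p = 0.0155), its partner Tlr6 (-1.56 ± 0.39) and the endosomal RNA sensor Tlr7 (-1.50 ± 0.35) fell. The sensors Tlr3, Tlr4 and Tlr5 did not pass (adjusted p = 0.202, 0.994 and 0.767), nor did the inhibitors Nfkbiz and Tnip1 (adjusted p = 0.196 and 0.0583). The signalling kinase gene Irak2 (-1.06 ± 0.24) and the ubiquitin ligase gene Birc3 (-1.53 ± 0.46) also fell. Ripk2, the kinase downstream of NOD receptors, rose by 1.06 ± 0.20, adjusted p = 0.00329. Ripk2 had an adjusted p of 0.23 with normexp background correction and 0.0515 in the fit of 2 groups. Nfkbib had an adjusted p of 0.0554 to 0.0779 without untreated replicate 3 or high-dose replicates 1, 2 or 3 and 0.0725 in the fit of 2 groups. Tlr2 had an adjusted p of 0.0518 to 0.0646 without untreated replicate 3 or high-dose replicate 1. The list's count was 4 without high-dose replicate 1 and 5 without untreated replicate 3, with Ripk2, Nfkbie, Nfkbia and Irak2 past the threshold whichever array was left out, and 5 in the fit of 2 groups. Irak4, a proximal kinase of the pathway, was dim on all untreated arrays and at least 1.95-fold higher, but belonged to the genes set aside with slide 3.

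AhR targets and drug-metabolising enzymes moved in both directions. Cyp1a1, the AhR's classical target, was not well above background on any untreated array, at -7.90, -7.89, -8.24 and -7.64, and was well above it on all 4 high-dose arrays, at -3.61, -4.62, -4.37 and -4.09. It was at least 3.32-fold higher (adjusted p = 0.0119), the bound being set by the background. The change as measured was 3.75 ± 0.83 on the log2 scale. Omeprazole, a known inducer of CYP1A enzymes in liver, gave levels of -3.89, -2.17, -2.22 and -1.53, and sham arrays -6.66, -3.44, -7.62 and -7.55. Cyp1a1 had an adjusted p of 0.147 with normexp background correction and 0.0556 with signals near background raised to it. Ahrr, the AhR repressor, stood at -2.90, -1.67, -2.76 and -1.61 on untreated and -1.16, -0.99, -0.99 and -0.93 on high-dose arrays. High-dose arrays lay close together and above all untreated arrays (1.21 ± 0.25, adjusted p = 0.00846). Cyp1b1, another target, went the other way, from -2.19, -3.67, -2.47 and -1.77 to -4.55, -4.47, -4.48 and -4.13. Its groups were separate, a change of -1.88 ± 0.36, adjusted p = 0.00405.

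The promoters of Ahrr and Cyp1b1 are shown because these AhR targets changed in opposite directions. Both cover 250 bases before the RefSeq start in GRCr8 on the gene's strand, 5′ to 3′, with the AhR core motif GCGTG, or CACGC where it lies on the other strand, in capitals: Ahrr at chr1:30821969-30822218 (plus strand) and Cyp1b1 at chr6:21094315-21094564 (plus strand).

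Ahrr: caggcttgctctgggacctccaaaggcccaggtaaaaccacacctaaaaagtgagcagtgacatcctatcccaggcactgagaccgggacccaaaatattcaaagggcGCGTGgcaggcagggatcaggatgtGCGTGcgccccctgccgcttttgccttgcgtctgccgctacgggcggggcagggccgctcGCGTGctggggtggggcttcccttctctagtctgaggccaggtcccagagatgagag
Cyp1b1: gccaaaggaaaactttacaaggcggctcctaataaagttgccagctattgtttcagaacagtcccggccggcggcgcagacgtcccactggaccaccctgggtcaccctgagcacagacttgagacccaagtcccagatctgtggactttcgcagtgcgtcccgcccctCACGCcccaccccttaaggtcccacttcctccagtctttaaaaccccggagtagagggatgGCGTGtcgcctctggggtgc

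Ahrr held 3 core motifs, at -142 to -138, -117 to -113 and -57 to -53 from the start, and Cyp1b1 held 2, at -81 to -77 on the other strand and at -20 to -16. The core motif on either strand was present in 7459 of 27457 promoters (27.2%). Ahrr also held 1 NF-kB match at -45 to -36, where the motif matched on both strands, and Nfkbie 1 AhR core at -105 to -101, both left in lower case.

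Over the list of 29 measured genes, 4 rose (13.8%) and 2 fell (6.9%), with a median of 0.61. The other rises were Fmo2, a flavin monooxygenase (1.48 ± 0.32, adjusted p = 0.01), and Cyp2b2, a barbiturate-inducible cytochrome P450 (1.47 ± 0.33, adjusted p = 0.0119), and the other fall was the efflux pump gene Abcb1b (-0.57 ± 0.15). Ahrr had an adjusted p of 0.0666 in the fit of 2 groups and 0.0824 in the value table. Cyp2b2 had an adjusted p of 0.0725 in the fit of 2 groups. Abcb1b had an adjusted p of 0.0532 to 0.11 without untreated replicates 1 or 4 or high-dose replicates 1, 2 or 3, 0.0543 with the mean of all probes and 0.117 in the fit of 2 groups. The count was 12 without untreated replicate 2. With the replicate block 7 rose and 2 fell, and 3 passed in the fit of 2 groups. The list median was also positive for omeprazole (0.904) and low dose (0.809) minus untreated, and was -0.907 for untreated minus sham. The list score was -1.105 to -0.234 on untreated and -0.153 to 0.17 on high-dose arrays. It was 0.021 to 0.568 on omeprazole and -0.063 to 0.256 on sham arrays. The cause of these differences was not tested.

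**Figure D4:**
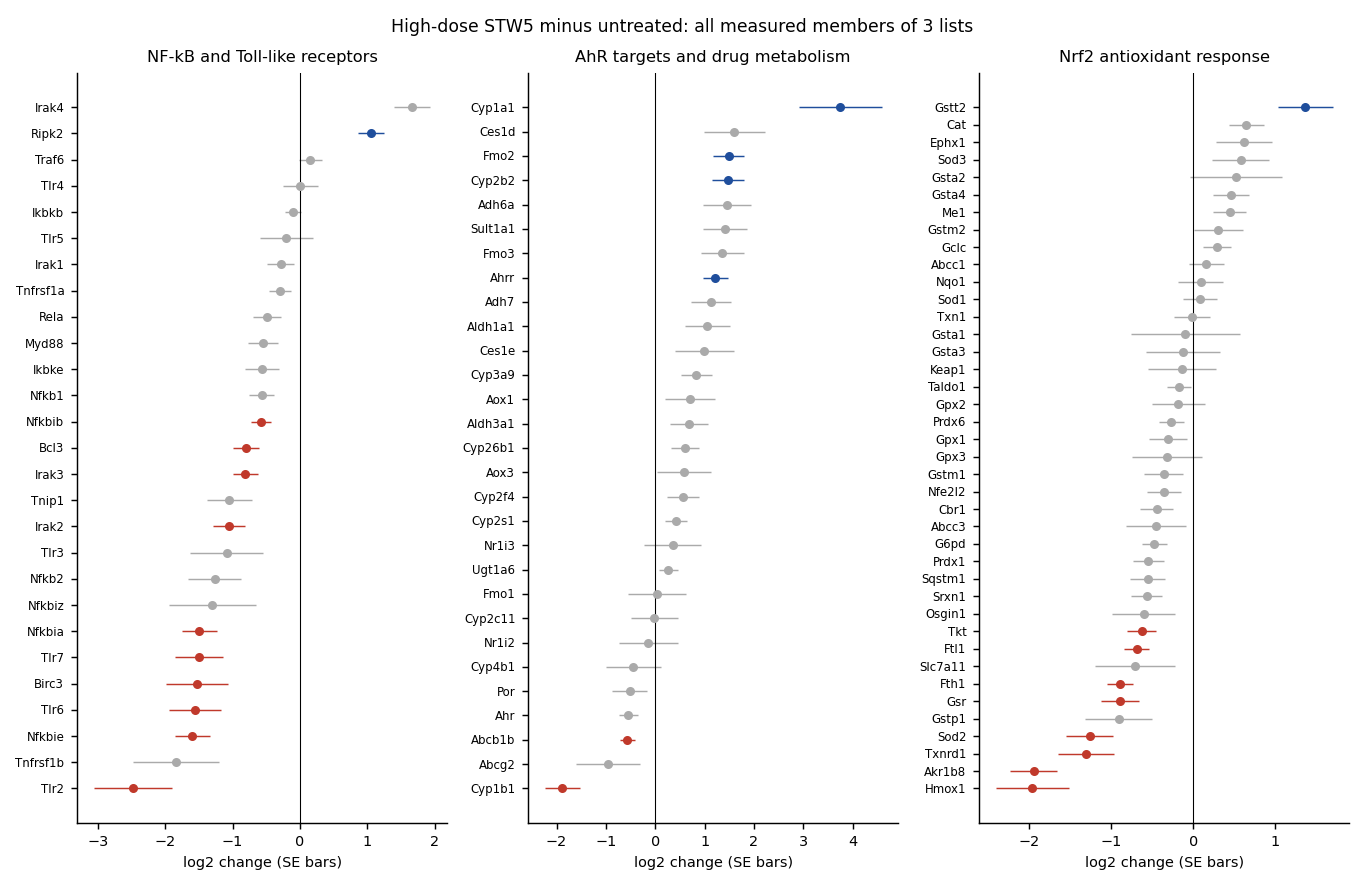
Each row is a measured member of the NF-kB and Toll-like receptor, the AhR and drug metabolism or the Nrf2 list, with its log2 change of high-dose STW5 minus untreated and a bar of 1 SE either way on the x axis. Coloured points passed the test outside the set of slide 3: 10 lower and 1 higher of the NF-kB list, 2 lower and 4 higher of the AhR list, and 8 lower and 1 higher of the Nrf2 list.

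Antioxidant genes driven by Nrf2 were lower where they passed, except for Gstt2. Of 40 genes 8 fell (20%) and 1 rose, with a median of -0.32. The list median was 0.071 for untreated minus sham, -0.022 for omeprazole minus untreated and 0.196 for low dose minus untreated. The list score was -0.074 to 0.202 on untreated and -0.292 to -0.13 on high-dose arrays. It was -0.056 to 0.112 on omeprazole and -0.187 to 0.08 on sham arrays. Hmox1, the haem-degrading enzyme, stood at 3.01, 1.39, 3.26 and 3.12 on untreated and 0.05, 0.85, 1.09 and 0.94 on high-dose arrays. Untreated replicate 2 was nearest to the high-dose arrays, and the groups did not overlap (-1.96 ± 0.45, adjusted p = 0.0132). Akr1b8, an aldo-keto reductase, fell by 1.94 ± 0.29 (adjusted p = 0.000377). The iron-storing ferritin chains Fth1 (-0.89 ± 0.16) and Ftl1 (-0.69 ± 0.15), the mitochondrial superoxide dismutase Sod2 (-1.26 ± 0.29), glutathione reductase Gsr (-0.90 ± 0.23), thioredoxin reductase Txnrd1 (-1.31 ± 0.34) and transketolase Tkt (-0.63 ± 0.18) also fell, and the glutathione transferase Gstt2 rose by 1.37 ± 0.33. Hmox1 had an adjusted p of 0.0581 without high-dose replicate 1. The count was 3 without high-dose replicate 1, and 2 in the fit of 2 groups. Akr1b8, Fth1 and Ftl1 passed whichever array was left out.

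Of 33 genes of hypoxia and glycolysis 7 fell (21.2%) and 1 rose, with a median of -0.36. The oxygen-regulated factor Hif1a (-1.48 ± 0.38), the glucose transporter Slc2a1 (-1.02 ± 0.27), the lactate exporter Slc16a3 (-1.79 ± 0.42, adjusted p = 0.0158), phosphofructokinase Pfkl (-0.86 ± 0.19), Hk2 (-0.83 ± 0.25), enolase Eno1 (-0.66 ± 0.20) and Ankrd37 (-0.92 ± 0.21) fell. Hk1, the hexokinase of most resting cells, rose by 0.74 ± 0.16. The count was 2 without high-dose replicate 1, 4 without high-dose replicate 2 and 5 without untreated replicate 3 or high-dose replicate 3, and 3 in the fit of 2 groups. Among apoptosis genes 4 of 27 fell (14.8%, beside 4.34% of all genes) and 0 rose: the BH3 protein Bid (-1.31 ± 0.31), the pore-former Bak1 (-0.88 ± 0.23), the inhibitor Birc2 (-0.64 ± 0.15) and the death receptor Fas (-1.58 ± 0.23), whose probes disagreed with changes of -1.58 and 0.55. The apoptosis count was 1 without high-dose replicate 1, 2 without untreated replicate 1 and 7 without untreated replicate 2.

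Genes of tissue remodelling, vessels and lipid mediators gave fewer calls. Of 27 matrix proteases and inhibitors 5 fell and 0 rose: Mmp7, the urokinase receptor Plaur (-2.87 ± 0.83), the lysosomal cathepsins Ctsl (-0.96 ± 0.22) and Ctsb (-0.73 ± 0.17), and the aggrecanase Adamts4, dim on all high-dose arrays and at least 2.98-fold lower (adjusted p = 0.0112). Of 37 fibrillar matrix genes only thrombospondin Thbs1 (-2.38 ± 0.56) and versican Vcan (-1.74 ± 0.43) passed, both lower. Of 26 endothelial genes 3 fell: the leukocyte adhesion molecule Icam1 (-1.34 ± 0.32, adjusted p = 0.0168), the VEGF receptor Flt1 (-1.52 ± 0.37) and the nitric oxide synthase Nos3 (-1.06 ± 0.29). Of 30 eicosanoid genes 3 fell: the prostaglandin E2 receptor Ptger2 (-2.49 ± 0.40, adjusted p = 0.000984), the prostaglandin E synthase Ptges (-1.43 ± 0.42) and the thromboxane synthase Tbxas1 (-1.20 ± 0.35). Ptger2 stood at -2.24, -4.55, -2.97 and -3.69 on untreated and -6.60, -5.78, -5.33 and -5.69 on high-dose arrays, without overlap. Of 20 antigen presentation genes 3 fell, namely the lysosomal reductase Ifi30 (-0.98 ± 0.25), the peptide-loading chaperone Tapbp (-0.81 ± 0.23) and the class II accessory gene RT1-DMb (-1.24 ± 0.37). The protease count was 2 without high-dose replicate 1, 3 without high-dose replicate 2 and 8 without untreated replicate 2, the fibrillar matrix count 0 without high-dose replicate 1 and 4 without untreated replicate 2, the endothelial count 0 without high-dose replicate 1, 1 without untreated replicate 3 and 5 without untreated replicate 2, the eicosanoid count 1 without untreated replicates 1 or 3 or high-dose replicates 1, 2, 3 or 4 and 5 without untreated replicate 2 and the antigen presentation count 0 without high-dose replicates 1, 2 or 3, 1 without untreated replicates 1 or 4 or high-dose replicate 4 and 6 without untreated replicate 2. Ptger2 passed whichever array was left out.

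The largest rises were in genes of varied function. Teddm3, a membrane protein gene of the epididymal family, had the largest measured rise, 6.02 ± 1.60 (adjusted p = 0.0271). It stood at 3.79, 0.35, -2.35 and -3.73 on untreated and 6.001, 5.85, 5.25 and 5.07 on high-dose arrays. Untreated arrays spanned a wide range, as low-dose arrays did at -1.85, -2.19, 6.57 and 6.15, while omeprazole arrays lay at 6.03 to 6.42 and sham arrays at 3.57 to 6.45. Tcf21, a transcription factor of mesenchymal cells, read -7.30, -6.27, -5.26 and -6.27 on untreated and -3.62, -3.70, -3.47 and -3.69 on high-dose arrays. The high-dose arrays lay close together and above all untreated arrays (2.65 ± 0.34, adjusted p = 9.43e-05). Barx1, a homeobox gene of foregut mesenchyme, rose by 2.61 ± 0.74, adjusted p = 0.0371, and Omd, a keratan sulphate proteoglycan of the matrix, by 2.38 ± 0.60, adjusted p = 0.0218. Myh13, a fast myosin of extraocular muscle, rose by 3.12 ± 0.60, adjusted p = 0.00445 at its brightest probe, but its other probe changed by 0.31.

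Receptors and enzymes made up much of the rest. The dopamine receptor gene Drd5 stood at -1.63, 0.34, -2.79 and -0.70 without drug and 1.68, 0.94, 0.85 and 0.95 with high-dose STW5. High-dose replicate 1 was the highest of the 8 arrays and the groups were separate (2.30 ± 0.46, adjusted p = 0.00588). The latrophilin gene Adgrl3 was dim on all untreated arrays and at least 1.92-fold higher (adjusted p = 0.000323). Alox12e, an epidermal-type 12-lipoxygenase, rose by 2.13 ± 0.52, adjusted p = 0.0198, with levels of -2.94, -2.97, -4.37 and -6.31 on untreated, -1.55, -2.46, -2.02 and -2.05 on high-dose and -7.81, -7.82, -7.37 and -7.72 on omeprazole arrays. High-dose arrays were highest and omeprazole arrays lowest. The carboxylesterase-like gene Cesl1 rose by 2.47 ± 0.40, adjusted p = 0.000964, the liver- and kidney-enriched gene Ttc36 by 2.58 ± 0.68, adjusted p = 0.0268, and Vxn, a gene of neural differentiation, by 2.20 ± 0.51, adjusted p = 0.0145. Lap3, a leucine aminopeptidase, Mamdc4, an apical endosomal glycoprotein, and Reep5, a shaper of the endoplasmic reticulum, were dim on all untreated arrays and at least 2.69-, 2.7- and 2.91-fold higher (adjusted p = 6.81e-08, 8.38e-05 and 0.000167). Omeprazole arrays on the same slide ranged over -5.41 to -5.20 for Lap3, -5.15 to -3.78 for Mamdc4 and -3.92 to -3.53 for Reep5, beside high-dose ranges of -4.71 to -4.12, -5.13 to -4.04 and -4.90 to -3.98.

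Tcf21, Myh13, Cesl1, Drd5, Lap3, Mamdc4, Adgrl3, Reep5 and Cyp1a1 passed the threshold when any 1 array was left out. Teddm3 had an adjusted p of 0.0513 to 0.0842 without untreated replicates 3 or 4 or high-dose replicates 1, 2 or 3, 0.0521 in the fit of 2 groups, 0.0515 with the replicate block and 0.0586 in the value table. Barx1 had an adjusted p of 0.0519 to 0.119 without untreated replicates 1, 3 or 4 or high-dose replicates 1, 2, 3 or 4, 0.0618 in the fit of 2 groups and 0.919 in the value table. Ttc36 had an adjusted p of 0.0568 to 0.0853 without untreated replicates 1 or 3 or high-dose replicates 2, 3 or 4 and 0.057 in the fit of 2 groups. Omd had an adjusted p of 0.0536 to 0.0737 without untreated replicates 1 or 3 or high-dose replicates 1 or 2 and 0.179 in the value table. Vxn had an adjusted p of 0.0572 without high-dose replicate 1, 0.0629 in the fit of 2 groups and 0.121 in the value table. Alox12e had an adjusted p of 0.0534 to 0.0737 without untreated replicate 3 or high-dose replicate 1 and 0.104 in the fit of 2 groups. Drd5 had an adjusted p of 0.0661 in the fit of 2 groups. Lap3 had an adjusted p of 0.0529 with normexp background correction. Mamdc4 had an adjusted p of 0.161 with normexp background correction. Adgrl3 had an adjusted p of 0.257 with normexp background correction. Reep5 had an adjusted p of 0.128 in the value table. In the value table, which exchanges the doses, Tcf21 changed by -0.51 and Alox12e by -2.77.

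Muscle and energy genes gave a few rises. Of 40 striated muscle genes 3 rose (7.5% against 4.02% of all genes) and 0 fell, and 35 had a change above 0, with a median of 0.65. The calcium buffer Pvalb (1.44 ± 0.30, adjusted p = 0.00902) and the fast myosins Myh2 (1.72 ± 0.44, adjusted p = 0.0227) and Myh4 (1.37 ± 0.35, adjusted p = 0.023) rose. The count was 1 without high-dose replicates 1, 2 or 3 and 5 without untreated replicate 2, and Pvalb passed whichever array was left out. The score was -1.09 to -0.18 on untreated and -0.22 to 0.48 on high-dose arrays. Of 32 fatty acid oxidation genes 3 rose (9.38%): Ucp3, the uncoupling protein of muscle mitochondria, Acsl1 (0.86 ± 0.26), which activates fatty acids, and Etfdh (0.57 ± 0.17), which passes their electrons on. Ucp3 stood at -2.65, -1.88, -2.29 and -1.78 on untreated and 0.07, -0.30, -0.03 and 0.00 on high-dose arrays. The groups were separate (2.09 ± 0.29, adjusted p = 0.000208), and Ucp3 passed whichever array was left out. Of 62 oxidative phosphorylation genes outside the set of slide 3, 3 rose and 0 fell (4.84%, beside 4.02% of all genes). Sdhc (0.95 ± 0.19), a subunit of complex II, and Ndufs5 (0.64 ± 0.16), a subunit of complex I, were among the 3. The fatty acid oxidation count was 1 without untreated replicate 1 or high-dose replicates 1, 2 or 3 and 7 without untreated replicate 2 and the oxidative phosphorylation count 1 without untreated replicate 1 or high-dose replicate 1. Both counts were 1 after array median scaling, and in the fit of 2 groups they were 1 and 0.

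The squamous epithelium gave few calls. The share that rose was 2.7% for cornification, 3.45% for junction and 4.17% for basal keratinocyte genes, beside 4.02% of all genes. Of 37 cornification genes only the epidermal caspase gene Casp14 rose (1.70 ± 0.47, adjusted p = 0.0313) and 0 fell, although 33 of 37 had a change above 0 and the median was 0.41. Casp14 stood at -3.80, -2.73, -5.29 and -2.09 on untreated and -1.48, -1.82, -2.09 and -1.72 on high-dose arrays. Casp14 had an adjusted p of 0.0616 to 0.101 without untreated replicates 1 or 3 or high-dose replicates 1, 2 or 4 and 0.124 in the fit of 2 groups. The cornification count was 0 without untreated replicates 1 or 3 or high-dose replicates 1, 2 or 4 and 8 without untreated replicate 2. The score was -1.75 to -0.07 on untreated, -0.58 to -0.35 on high-dose and -0.31 to 1.02 on sham arrays. Of 29 junction genes the tight junction protein gene Ocln rose (1.03 ± 0.25, adjusted p = 0.0199), and of 24 basal and wound-edge keratinocyte genes the integrin Itgb6 (0.89 ± 0.27, adjusted p = 0.0481), a call that both other scalings ended (adjusted p = 0.0611 with quantile normalization and 0.0788 with array median scaling). The mucin genes Muc15 (1.66 ± 0.40, adjusted p = 0.0185) and Muc6 (0.66 ± 0.19, adjusted p = 0.0356) rose among 8 mucins and trefoil factors (25.0%). Muc6 had an adjusted p of 0.0529 with quantile normalization and 0.0805 with normexp, and Muc15 of 0.314 with normexp. The sodium-proton exchanger Slc9a2 rose by 1.74 ± 0.36, adjusted p = 0.00832. It was the only 1 of 28 genes of acid and bicarbonate transport outside the set of slide 3 that rose (3.57%). The counts were 0 without untreated replicates 1 or 3 or high-dose replicate 1 and 2 without untreated replicate 2 for junctions, 0 without untreated replicates 1 or 4 or high-dose replicates 1, 2, 3 or 4 and 5 without untreated replicate 2 for basal keratinocytes and 0 without untreated replicate 3 or high-dose replicate 1 and 1 without untreated replicates 1 or 4 or high-dose replicate 4 for mucins.

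Against omeprazole, the comparison within slide 3, few genes passed in the main fit. High-dose STW5 was higher for 26 of 13615 genes (0.191%) and lower for 4 (0.0294%), with 2438 genes at an unadjusted p under 0.05 and a median change over all genes of -0.066. The genes set aside elsewhere were kept here. Far more genes passed in the fit of these 2 groups alone (1183) and with array weights (2260). The main fit pooled the spread over the 5 groups. The median SD of a gene was 0.233 on high-dose and 0.26 on omeprazole arrays. It was 0.298 on low-dose, 0.343 on sham and 0.369 on untreated arrays. The count of the main fit therefore does not show how alike the 2 drug groups were. Genes of eosinophil recruitment and 2 troponin genes of slow muscle were among the 6 largest differences. Ccl11, the eosinophil chemokine eotaxin, stood at 2.26, 2.21, 2.53 and 2.95 on high-dose and -3.74, -1.47, -1.63 and -2.39 on omeprazole arrays. Every high-dose array was higher, by 4.79 ± 0.75, adjusted p = 0.0145. Its receptor Ccr3 was dim on all omeprazole arrays and at least 3.96-fold higher with STW5 (adjusted p = 0.00407). Retnlg, the resistin-like myeloid protein, stood at 4.41, 3.06, 3.42 and 3.85 with STW5 and -4.52, -0.86, -1.16 and -3.11 with omeprazole, again without overlap (6.10 ± 1.02, adjusted p = 0.0192). Alox12e was dim with omeprazole and at least 13.2-fold higher with STW5 (adjusted p = 7.8e-05). The slow-muscle troponins Tnnt1 (3.13 ± 0.52, adjusted p = 0.0192) and Tnnc1 (2.91 ± 0.51, adjusted p = 0.0214) were higher. They were the only called members of 40 striated muscle genes, whose median was 0.029, with 21 above and 19 below 0.

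Lower than with omeprazole were the transcriptional repressor gene Prdm1 (-1.22 ± 0.24, adjusted p = 0.0443), the cohesin protector gene Sgo2 (-1.02 ± 0.20, adjusted p = 0.0443) and the pseudogene Helt-ps1 (-1.08 ± 0.19, adjusted p = 0.0198), besides 1 gene without an established symbol, and Spmip6, given as a value only, changed by -0.83 ± 0.17, adjusted p = 0.0517. The macrophage list had 0 of 29 called in limma, a median of 1.25 and, at an unadjusted p under 0.05, 18 genes higher. Squamous cornification had 0 of 37 called and a median of -0.74. The count of 30 genes was 12 without high-dose replicate 2, 5 without high-dose replicate 3 or 4, 9 without omeprazole replicate 2, 10 without omeprazole replicate 3 and 6 without omeprazole replicate 4. It was 1183 in the fit of these 2 groups alone, 2260 with array weights, 76 with the replicate block and 1021 in the value table. Alox12e and Ccr3 passed whichever of the 8 arrays was left out. Retnlg had an adjusted p of 0.0525 to 0.0912 without high-dose replicates 1, 3 or 4 or omeprazole replicates 1 or 4. Ccl11 had an adjusted p of 0.0594 to 0.0849 without high-dose replicates 3 or 4 or omeprazole replicate 4. Tnnt1 had an adjusted p of 0.0531 to 0.0912 without high-dose replicates 1, 3 or 4 or omeprazole replicates 2, 3 or 4. Tnnc1 had an adjusted p of 0.0591 to 0.11 without high-dose replicates 1, 2, 3 or 4 or omeprazole replicates 2, 3 or 4. Prdm1 had an adjusted p of 0.0775 to 0.24 without high-dose replicates 1, 2, 3 or 4 or omeprazole replicates 1, 2, 3 or 4. Helt-ps1 had an adjusted p of 0.0525 to 0.109 without high-dose replicates 2, 3 or 4 or omeprazole replicates 1, 2 or 4. Sgo2 had an adjusted p of 0.0682 to 0.231 without high-dose replicates 1, 2, 3 or 4 or omeprazole replicates 1, 2, 3 or 4. Both drug groups are compared with the same untreated arrays elsewhere, so their changes against untreated are not independent.

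**Figure D5:**
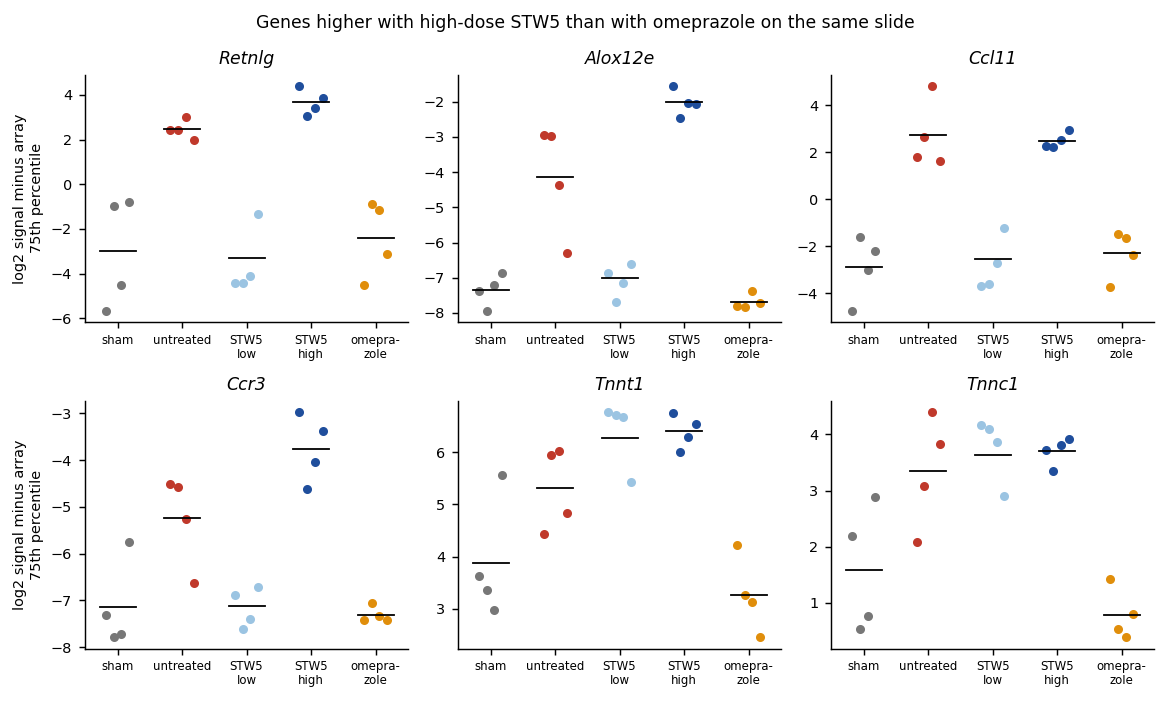
Each dot is an array and each line a group mean, with the log2 level on the y axis and the 5 groups on the x axis, for the 6 genes with the largest rises against omeprazole on the same slide. High-dose arrays lie above all omeprazole arrays in each panel, and the untreated arrays on the other slide lie nearer to the high-dose arrays for Retnlg and Ccl11.

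The scanner files labelled with the other dose differed from high-dose arrays at far more genes: 1314 were higher with high-dose STW5 (9.78%) and 1792 lower (13.3%). Macrophage, complement and matrix lists had calls towards higher levels with high-dose STW5, and the squamous and junction lists towards lower levels. Of the macrophage and monocyte markers 24 of 29 were higher, of complement and acute phase genes 15 of 23, of fibrillar matrix genes 26 of 37, of endothelial genes 16 of 26 and of chemokines 10 of 30, with 0 lower in each. Other leukocyte lists had fewer, with 5 of 16 neutrophil, 4 of 15 mast cell and eosinophil and 3 of 18 T and NK cell markers higher, and 2 of 4 B and plasma cell markers lower. Of the cornification genes 25 of 37 were lower, of junction genes 16 of 29 and of cholesterol and fatty acid synthesis genes 17 of 32, with 2 of the latter higher. The median over all genes was -0.148, and -0.276 after scaling to the array median or after normexp, beside list medians of 1.90 for macrophages and -1.33 for cornification. These arrays lay on different slides, so slide and dose cannot be told apart.

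Retnlg stood at 4.41, 3.06, 3.42 and 3.85 on high-dose and -4.43, -4.42, -4.13 and -1.35 on low-dose arrays. The groups were separate (6.99 ± 1.10, adjusted p = 0.000893). Ccl11 was higher by 5.03 ± 0.81, adjusted p = 0.00103. The collagenase Mmp13 and Alox12e were dim on low-dose arrays and at least 14.1- and 9.64-fold higher (adjusted p = 0.0221 and 3.09e-05). The secreted phospholipase Pla2g2a was higher by 3.90 ± 1.25, adjusted p = 0.0326, and the matrix protein gene Spon1 by 4.47 ± 0.60, adjusted p = 0.000217 at its brightest probe, with its probes disagreeing. The suprabasal keratin Krt1 stood at -0.73, -0.83, -1.17 and -1.34 on high-dose and 1.34, 1.22, 2.29 and 1.29 on low-dose arrays, lower throughout with high-dose STW5 (-2.64 ± 0.62, adjusted p = 0.00835). Also lower were Plcxd2 (-2.23 ± 0.49, adjusted p = 0.00653), Ctxn3 (-2.28 ± 0.77, adjusted p = 0.0416) and, dim on all high-dose arrays, the carnitine-synthesis enzyme gene Bbox1, the sperm fusion-associated gene Dcst1 and the angiopoietin-like gene Angptl6, at least 2.22-, 2.26- and 1.74-fold (adjusted p = 0.00424, 0.00297 and 0.00104). The count of 3106 genes was 1272 without low-dose replicate 3, 2025 without high-dose replicate 3 and 1976 without high-dose replicate 4. Mmp13 had an adjusted p of 0.0504 to 0.0567 without low-dose replicate 3 or high-dose replicates 3 or 4. Pla2g2a had an adjusted p of 0.0522 to 0.136 without low-dose replicate 3 or high-dose replicates 1, 2, 3 or 4. Ctxn3 had an adjusted p of 0.0583 to 0.128 without low-dose replicate 3 or high-dose replicates 1, 2, 3 or 4. Same-numbered arrays of these 2 groups deviated together, and with the replicate block the count was 4829 on 20 arrays, against 4570 on 20 arrays without it. After normexp 918 genes were higher and 4404 lower, and after scaling to the array median 1123 and 2842. The value table turned every named difference round, as its dose columns are exchanged.

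The 173 genes set aside with slide 3 close the account of high dose against untreated. Counting them, 700 genes were higher and 590 lower, which adds 159 higher and 7 lower genes. Just inside its edge lay Ms4a15, Coa3, Alkbh1 and Psma5, whose nearest arrays of the 2 sides were 0.0085, 0.0103, 0.0105 and 0.0115 apart, and just outside it Yap1, Tmem160, Smc4 and Cdk12, whose nearest arrays overlapped by 0.0062, 0.0073, 0.0076 and 0.014. A looser set of 279 genes, chosen after seeing the data, left 494 higher and 571 lower genes.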

How the data were processed

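Total RNA of oesophageal tissue (100 ng, PAXgene tissue kit, per the labels' protocols) was labelled with Cy3 and hybridised to 1-colour Agilent rat arrays. Per the file headers, the authors' scanner files hold the intensity of each feature, background-subtracted and detrended within an array by Agilent Feature Extraction 10.7.3.1 and not scaled between arrays. A table of processed values that the authors also deposited gives the signal as a ratio to the median of that array, as found by setting its columns against the scanner files. Of its columns 12 follow the scanner file of their own sample and 8, the STW5 samples, that of the other dose. How the authors settled the doses is not given in the sources used here.

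Log2 signals of replicate spots were averaged, leaving out spots marked as outliers, and each array's 75th percentile over the 58717 non-control features was subtracted. This gave 30367 probes. Genes were named through GRCr8 accessions (18384 probes), symbols (2485) or synonyms (528), or by the array file (1827), and 7143 probes had no gene. Probes entered the tests when 50% or more of their spots exceeded background clearly on 4 or more arrays, and a gene was read by its brightest kept probe, which left 13615 genes. Arrays whose spot differences were under 1.5 times those within an array counted as 1 sample (low-dose replicates 1 and 2, 1.117, where the next pair of any group had 2.613), a limit set with the data in view. One limma model (version 3.58.1, in R 4.3.3, files read by data.table, release 1.17.8) covered the 5 groups and 19 samples, with 14 residual degrees of freedom. The threshold was a Benjamini-Hochberg adjusted p of 0.05, and the median SE of a change was 0.245. For a group not well above background on any array, a fold is a lower bound against the lowest signal well above background. The fitting steps were tested on simulated data.

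Named genes are the 15 largest rises and 15 largest falls with an established symbol, an adjusted p under 0.05, separate groups and no place in the set of slide 3, 6 and 6 in the other comparisons (filled to 4 by the smallest p), and up to 4 members of a list by the smallest p. The other called list members were named after their values were seen. Members and the 43 gene lists (1257 genes, 1051 measured) were chosen with earlier results of these data known. Same-numbered arrays are on the same row of their slides. Their deviations correlated at 0.116, 0.163, 0.238 and 0.139 between high and low dose, which counts as pairing here, but not in all pairs between high dose and untreated (-0.263, 0.12, 0.088 and 0.119) or omeprazole (0.065, -0.323, 0.151 and -0.198). Alternatives covered scaling, background, filters, probes, samples, weights, variance prior, replicate block, the set of slide 3, the authors' table of values and each array left out, and a looser set and leaving out sham replicate 2 were added after seeing the data. Promoters are RefSeq's, of GRCr8. Python 3.11.15 with numpy 2.4.6, pandas 2.3.3 and matplotlib 3.10.9 read the files and drew the figures.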

Additional observations from a re-analysis of the deposited data

Results flagged for a closer look

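Each value below is an array far from the other 3 of its group, measured as the gap to the nearest of them divided by the group's range, and lies beyond Dixon's 95% critical value for 4 samples. Chance alone does so in about 1 of 20 groups, and 8 of 106 groups of the named genes did. Among genes that rose, Lap3 was highest on untreated replicate 4 (-7.42 against -7.75 to -7.73, a share of 0.925), all of them dim, Cesl1 was low on untreated replicate 3 (-6.49 against -4.44 to -4.19, a share of 0.893) and Drd5 was high on high-dose replicate 1 (1.68 against 0.85 to 0.95, a share of 0.874). Among genes that fell, Dusp2 was low on untreated replicate 2 (-4.48 against -2.77 to -2.51, a share of 0.87). Prdm1 was high on untreated replicate 2 (-0.70 against -1.50 to -1.38, a share of 0.853) and low on high-dose replicate 4 (-1.52 against -1.11 to -1.11, a share of 0.988). Of the genes named against the low dose, Bbox1 was low on high-dose replicate 3 (-7.92 against -6.77 to -6.74, a share of 0.973), where it is dim on all arrays, and Plcxd2 was high on high-dose replicate 2 (-3.41 against -3.86 to -3.80, a share of 0.86).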

How the results depend on the processing

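The count for high dose against untreated, 1124, ranged from 262 without high-dose replicate 1 to 1874 without untreated replicate 2. It was 337 in the fit of the 2 groups alone and 5274 in the value table, whose high-dose columns hold the arrays named low-dose here. It was within 1.5 times the main count under the other scalings, normexp, both filters, raised dim signals, probe means, weights, variance prior, 20 samples, the set of slide 3 and without sham replicate 2. The replicate block gave 1498. Against omeprazole the count of 30 ranged from 5 without high-dose replicate 3 or 4 to 22 without omeprazole replicate 1, and was 27 without sham replicate 2. It was 68 with normexp, 11 with probes above background on all 8 arrays, 64 with dim signals raised, 1183 in the fit of 2 groups, 2260 with array weights, 76 with the replicate block and 1021 in the value table. Against low dose 3106 ranged from 1272 without low-dose replicate 3 to 3931 without low-dose replicate 4, with 5322 for normexp, 5602 with no filter, 6179 with array weights and 4829 with the replicate block. The larger or smaller spread is not traced to a cause, which was not tested.

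The value table, whose dose columns are exchanged, reversed Tcf21 (-0.51), Alox12e (-2.77), Irak4 (-0.27), Angptl6 (0.53) and Nfkbib (0.11) against untreated. Against omeprazole it reversed Retnlg (-0.68), Ccl11 (-0.026), Prdm1 (0.79) and Helt-ps1 (0.63). Against the other dose it reversed Retnlg (-6.86), Mmp13 (-5.12), Ccl11 (-4.90), Alox12e (-4.86), Spon1 (-4.34), Pla2g2a (-3.78), Krt1 (2.77), Dcst1 (2.46), Ctxn3 (2.41), Bbox1 (2.41), Angptl6 (2.37) and Plcxd2 (2.35). Reversals were counted only for genes with an adjusted p under 0.05 in the main fit, and no other alternative reversed one of those. Spmip6, given as a value only, ranged from -0.91 to 0.34 against omeprazole over the alternatives. Of the 30 genes named against untreated, 30 passed under both other scalings, 29 with the replicate block, 26 with normexp, 19 in the fit of 2 groups and 17 without high-dose replicate 1. Dim probes have only bounds, and changes much under 1 on the log2 scale are often missed with 4 arrays per group.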

Other observations

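Lists outside the groups described above gave 1 to 3 calls each, or 0, between high-dose STW5 and untreated oesophagitis. Most shares lay near the 4.02% higher and 4.34% lower of all genes. Higher were 3.12% of 32 pain, 5.56% of 18 clock and 3.12% of 32 lipid synthesis genes. Of 32 interferon genes 3.12% rose and 3.12% fell, and of 27 muscle stretch genes 3.7% and 7.41%. Lower were 4.55% of 22 smooth muscle, 3.57% of 28 unfolded protein and 5.56% of 18 glucocorticoid genes. Among nerve and pain genes the neurokinin receptor Tacr3 rose (1.97 ± 0.60, adjusted p = 0.0499), but it passed in 2 of the 8 fits that left out 1 array, and array median scaling (adjusted p = 0.0588), quantile normalization (0.0603) and normexp (0.0897) left it short. The count of its list was 0 without untreated replicates 1 or 3 or any 1 high-dose array, 3 without untreated replicate 4 and 4 without untreated replicate 2. The clock gene Per3 rose (0.77 ± 0.17, adjusted p = 0.0105) and the lipid synthesis regulator Srebf1 rose (0.98 ± 0.18, adjusted p = 0.0029). The interferon-inducible GTPase Igtp rose by 0.86 ± 0.18, adjusted p = 0.00815, with an adjusted p of 0.534 from the mean of its probes, whereas Oasl was dim on all high-dose arrays and at least 3.93-fold lower (adjusted p = 0.00248). Among genes of the muscle lists, Mss51 rose (1.86 ± 0.44, adjusted p = 0.0156) and the myostatin antagonist Fst (-1.10 ± 0.23, adjusted p = 0.00926), the regeneration factor Runx1 (-1.53 ± 0.42, adjusted p = 0.03) and the actin crosslinker Actn1 (-1.03 ± 0.25, adjusted p = 0.019) fell. With 1 array left out in turn, Fst passed in 8 of 8 fits, Mss51 and Actn1 in 6 and Runx1 in 3. Mss51 had an adjusted p of 0.0517 and 0.0586 without untreated replicate 3 and high-dose replicate 1, Actn1 of 0.0563 and 0.0765 without untreated replicate 1 and high-dose replicate 1, and Runx1 of 0.0554 to 0.0971 without untreated replicates 3 or 4 or high-dose replicates 1, 2 or 3. The count of the stretch, regeneration and wasting list, 3, was 1 without high-dose replicate 1, 2 without untreated replicate 4 or high-dose replicates 2 or 3 and 6 without untreated replicate 2. The calcium-binding chaperone Calr (-0.82 ± 0.19, adjusted p = 0.0143) and the glucocorticoid-induced kinase Sgk1 (-1.04 ± 0.25, adjusted p = 0.0179) fell, each losing the threshold without high-dose replicate 1.

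Proliferation and immediate early genes had 0 calls of 43 and of 25 in limma. At an unadjusted p under 0.05, 8 and 11 were lower, and the list medians were -0.37 and -0.61. Without untreated replicate 2, 6 immediate early genes passed. Their scores on sham arrays were -0.27, -0.16, -0.38 and -0.22 for replicates 1 to 4, beside -0.05 to 0.31 on high-dose and 0.16 to 1.36 on untreated arrays. The macrophage score of sham replicate 2 was 0.02, while those of sham replicates 1, 3 and 4 were -2.08, -1.65 and -0.41.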
